A study of Mus musculus with 36 samples.

Results

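Tuft cells and the Sox9 High sort of the mouse small-intestinal epithelium were compared for their microRNAs (miRNAs). The comparison holds 3 tuft libraries (replicates 1, 3 and 4) and 4 Sox9 High libraries (replicates 1 to 4), 7 of the 36 samples of the series, chosen by the population that their labels name. The other samples are 27 small RNA libraries, of which 24 have values in the deposited table and belong to 6 further populations, and 2 single-cell sets. All 7 libraries came from small intestine of C57BL6/2J mice, sorted by FACS and prepared with the TriLink CleanTag small RNA ligation kit. The sources used here name no gate, reporter, age or animal number for these sorts. Sox9 High, Sox9 Low and Sox9 Negative libraries of the same number carry the same sample code in their labels, and the label of Sox9 High replicate 3 carries the code HFD where those of the other 3 carry the word chow, and the tuft labels carry neither. The question was how far the cells with the most Sox9 resemble tuft cells.

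A miRNA is a short RNA that guides the silencing machinery to messenger RNAs, which it recognises mainly through its seed, bases 2 to 8 from the 5′ end. Tuft cells are rare chemosensory cells that detect luminal signals and start type 2 immune responses. Sox9 is a transcription factor of crypt cells, and high levels of it are known from several cell kinds, among them enteroendocrine, Paneth and tuft cells and reserve stem cells, so a sort on high Sox9 can hold a mixture. In the single-cell sets (wild type, 12 months), the 24 and 23 annotated tuft cells had a summed Sox9 level of 289 CPM (95% Poisson interval 240 to 345) and 232 CPM (195 to 275), counting error only. That was the highest of the 8 annotated cell types in both sets, the next being intestinal stem cells at 76.2 and 106 CPM. Of the other kinds named above, enteroendocrine cells were at 53.3 and 22.2 CPM and Paneth cells at 27.3 and 46.5 CPM. The tuft annotation was borne by its markers, with the kinase Dclk1 at 849 and 638 CPM and the ion channel Trpm5 at 322 and 224 CPM. Each of these tuft cells held at least 1 Sox9 UMI (100%, median 15067 and 16640 UMIs per cell). Enterocytes, the absorptive cells, had the lowest share, 7.14% and 16.8% of cells (median 15164 and 24698 UMIs). The other types lay between. Among them, Paneth cells were at 77.4% and 68.9% (median 73555 and 67245 UMIs), secretory progenitors at 67.1% and 84.9% and stem cells at 50% and 65%. The 2 sets shared 0 cell barcodes. Cells were taken as annotated by the authors, and no doublet caller was run. They are other samples than the sorted cells, and Sox9 mRNA was not measured in the small RNA libraries.

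Mature sequences of the miRNAs on which the results turn are shown first, since several differ from a relative that behaved otherwise by few bases. They were read from RefSeq (GRCm38.p6), which held a sequence for 190 of the 229 tested entries that carry a plain miRNA name. Capitals mark the seed. The miR-7 pair was the most depleted in tuft cells:
miR-7a-5p: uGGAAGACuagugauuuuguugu
miR-7b-5p: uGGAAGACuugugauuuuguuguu
The intestinal miR-192/194/215 family comes from a locus on chromosome 1 and another on chromosome 19:
miR-192-5p: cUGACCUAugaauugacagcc
miR-215-5p: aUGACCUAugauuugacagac
miR-194-5p: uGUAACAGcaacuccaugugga
miR-194-1-3p: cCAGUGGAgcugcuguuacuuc
miR-194-2-3p: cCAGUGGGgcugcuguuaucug
The miR-183/96/182 cluster of sensory cells holds the most abundant of the miRNAs called higher in tuft:
miR-182-5p: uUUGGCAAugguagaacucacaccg
miR-183-5p: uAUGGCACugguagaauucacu
miR-96-5p: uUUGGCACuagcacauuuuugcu
Of the next 2 pairs, each sharing 1 seed, the first member was called higher in tuft and the other was not:
miR-27a-3p: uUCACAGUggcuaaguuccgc
miR-27b-3p: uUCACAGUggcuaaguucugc
miR-152-3p: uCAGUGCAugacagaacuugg
miR-148a-3p: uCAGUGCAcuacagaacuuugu
The last 2 were highest in tuft and Sox9 High cells among the 8 populations:
miR-139-3p: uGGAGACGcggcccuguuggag
miR-672-5p: uGAGGUUGguguacuguguguga
Counted from 1 at the 5′ end, miR-7a-5p differs from miR-7b-5p by A10U, outside the seed, and is shorter by its last base. miR-194-1-3p differs from miR-194-2-3p by A8G, within the seed, and by C19U, U20C and C22G. miR-27a-3p and miR-27b-3p differ by C19U alone. miR-192-5p differs from miR-215-5p by C1A, A12U and C20A.

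The deposited table gives a normalized value per entry and library, and in each library all listed values are whole multiples of 1 smallest step, the value of a single read (tolerance 0.001 reads). Reads recovered in this way numbered 559784, 475678 and 720400 in the tuft libraries, against 4505884, 6091506, 2945821 and 9229136 in the Sox9 High libraries. Nothing under 10 reads is listed, so a listed 0 covers anything up to 9 reads, and 10 reads are worth up to 68.9 units in tuft but at most 11.4 in Sox9 High. All values under 100 were therefore raised to 100 before folds were taken, and a fold against a group wholly at or under that floor is a lower bound. Replicates correlated at 0.934 to 0.945 in tuft and 0.970 to 0.996 in Sox9 High (Pearson's r of log2 floored values across entries, which are not independent replicates). The Sox9 High labels name sequencing lanes and the tuft labels are written in another form with no lane, so run and population cannot be told apart. In bulk libraries, fewer cells of a kind and less RNA per cell cannot be told apart either. No label says whether replicates are different mice, and the p-values therefore reflect the spread among these samples, which may be technical.

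Tuft cells held far less miR-7 and more miR-182, miR-215, miR-486 and miR-27a than Sox9 High cells, while miR-375, miR-672 and the miR-200 family were not called different. Of 473 entries tested, 137 were called (29%) at an adjusted p under 0.05 and at least a 2-fold change in limma. Of these, 55 were higher (11.6%) and 82 lower (17.3%) in tuft. Among the 229 entries without an offset, which are the miRNAs as annotated, 68 were called (29.7%), 22 were higher (9.61%) and 46 lower (20.1%). Of the 473 entries, 86 lay at or under the floor in all 7 libraries, so their log2 fold change was 0 and they could not be called. Of the 229 entries without an offset, 203 were above the floor in at least 1 of the 7 libraries. The shares given here and the list medians below include entries at the floor throughout. Values in all 7 libraries exceeded the floor for 139 entries, and of those 25 were higher and 30 lower. Of the lower calls, 20 had every tuft library at or under the floor, and of the higher calls, 16 had every Sox9 High library there. At an unadjusted p under 0.05, 90 entries were higher and 121 lower. A pseudocount of 1 in place of the floor gave 53 higher and 238 lower. Tests on recovered reads, which change the model and the scaling as well as the floor, gave 55 higher and 182 lower with edgeR and 63 higher and 179 lower with DESeq2.

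**Figure D1:**
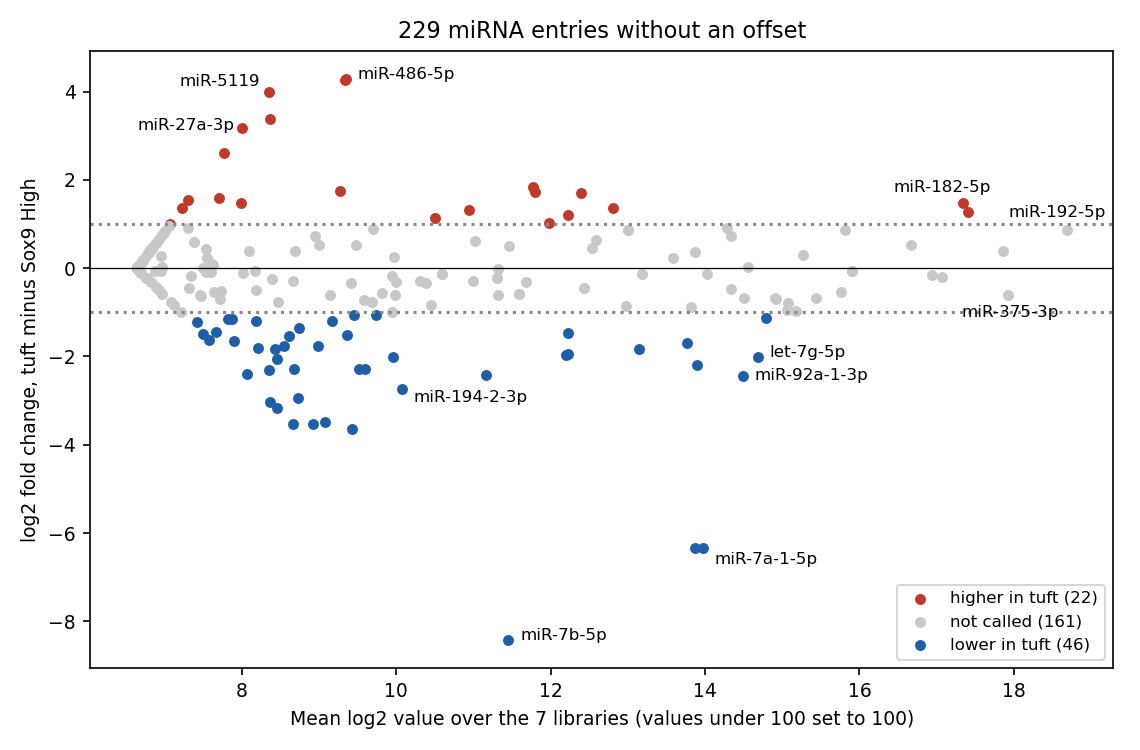
Each point is 1 of the 229 miRNA entries without an offset, with its mean log2 value over the 7 libraries on the horizontal axis and its log2 fold change, tuft minus Sox9 High, on the vertical axis. Red points are the 22 entries higher in tuft, grey the 161 not called and blue the 46 lower, with miR-7b-5p at -8.42 and miR-486-5p at 4.29 as the extremes and dotted lines at a 2-fold change.

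The largest falls in tuft cells were in miR-7, the miRNA of endocrine and neural cells. miR-7b-5p (GRCm38.p6, chromosome 17, 56243017 to 56243040, +) was listed at 0, 0 and 0 in tuft libraries, against 40162, 25255, 41246 and 32817 in Sox9 High libraries. The groups were far apart, and tuft cells were lower by at least 342-fold (log2 fold change -8.42, adjusted p 5.76e-14). miR-7a-1-5p (chromosome 13, 58392841 to 58392863, -) stood at 698, 3553 and 893 in tuft, against 128119, 86399, 118132 and 97815 in Sox9 High. Even the highest tuft library lay far under the lowest Sox9 High library, and tuft cells were 81.6-fold lower (log2 fold change -6.35, adjusted p 3.01e-11). Of the 8 populations, tuft had the lowest mean of miR-7a-1-5p and Sox9 High the highest, with 4534 ± 703 (SD, n = 6) in Paneth cells as the lowest of the other 6. Sox9 Low was close to Sox9 High, at 87378 ± 31017 (SD, n = 4). Its highest library, at 133527, was above every Sox9 High library. For miR-7b-5p, Sox9 Low had a mean of 27799 ± 9822, against 34870 ± 7424 in Sox9 High. The copy named miR-7a-2-5p has the same mature sequence and is not a separate measurement. The opposite arm of that copy, miR-7a-2-3p, was at 0 in all tuft libraries, against 1394, 897, 1131 and 1249 in Sox9 High libraries, lower by at least 11.5-fold (adjusted p 2.5e-08).

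Of 16 tested entries of the endocrine and neural list, 8 were lower and 1 higher in tuft (median log2 fold change -0.98), against 20.1% lower and 9.61% higher (median -0.06) over all entries without an offset. Of the 8, 4 are the miR-7 entries above, which hold 1 mature sequence under 2 names. Among the other 11 members, 4 were lower and 1 higher (median -0.60), and the most abundant, miR-375-3p, was not called. miR-184-3p, abundant in neural and secretory tissues, was at 0 in every tuft library, against 738, 906, 1029 and 971 in Sox9 High, at least 9.04-fold lower (adjusted p 4.62e-08). miR-1224-5p was also at 0 in tuft, against 395, 723, 2143 and 715 in Sox9 High, at least 8.13-fold lower. For miR-132-3p, induced by neuronal activity, tuft libraries held 0, 0 and 111, against 500, 592, 577 and 528 in Sox9 High (log2 fold change -2.41, adjusted p 8.02e-11). In all 3 cases the groups did not overlap. The share of all tested entries whose groups did not overlap was not counted, here or below. Sox9 Low held these 3 miRNAs too, at 1982 ± 1786, 1762 ± 2433 and 419 ± 114 (SD, n = 4). The means in Sox9 High were 911, 994 and 549. miR-127-3p, a maternally expressed neural miRNA, was called lower at -1.19, but tuft replicate 1 held 606, above every Sox9 High library (294, 374, 498 and 547), and the other two tuft libraries 0. That call was lost at a floor of 200 (-0.52), without tuft replicate 3 or 4 (log2 fold change -0.76 in both cases) and without Sox9 High replicate 3 or 4 (-1.10 and -1.06).

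miR-375-3p, the most abundant endocrine miRNA, was high in both sorts. It stood at 181776, 227376 and 180327 in tuft, against 295057, 213245, 382284 and 322384 in Sox9 High. One tuft library exceeded the lowest Sox9 High library, and the log2 fold change of -0.60 (95% interval -1.42 to 0.22) was not called (adjusted p 0.271). In both sorts it exceeded its means in Paneth (113552 ± 28255, n = 6), goblet (98141 ± 46936, n = 4) and Sox9 Negative cells (3627 ± 1135, n = 4), with Sox9 Low at 258588 ± 187258 (n = 4).

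**Figure D2:**
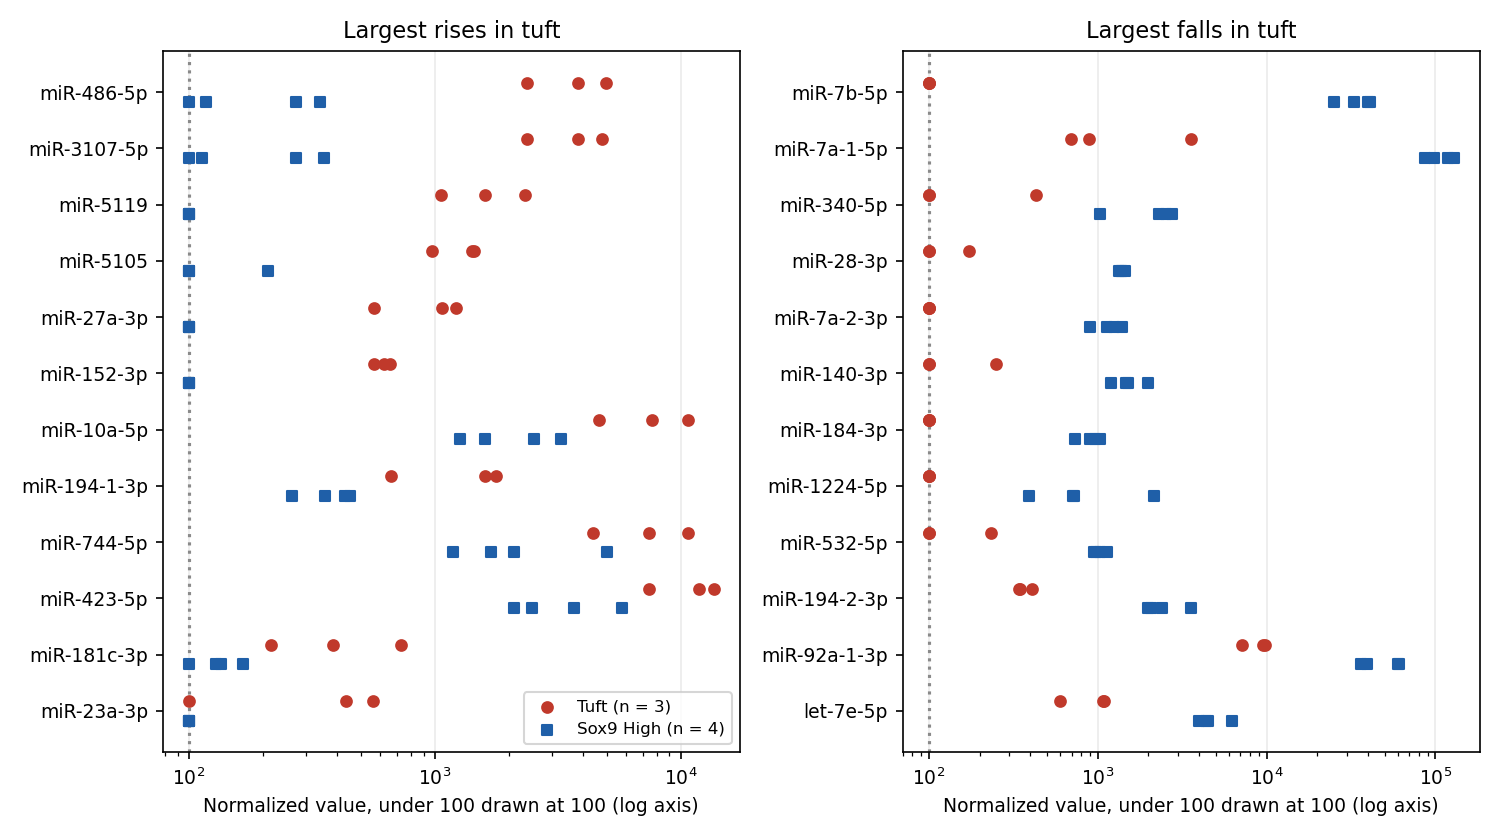
The 12 largest rises (left) and 12 largest falls (right) among called entries without an offset, with 1 red circle per tuft library and 1 blue square per Sox9 High library. The horizontal axis is the normalized value on a log axis, with values under 100 drawn at the dotted floor of 100. miR-7b-5p has all 3 tuft libraries at the floor and all 4 Sox9 High libraries at 25255 or more, and miR-23a-3p is the 1 rise in which a tuft library lies at the floor.

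Further large falls were in miR-340-5p, miR-28-3p, miR-140-3p, miR-532-5p and miR-31-5p. miR-340-5p was at 0, 0 and 434 in tuft, against 2549, 1035, 2739 and 2316 in Sox9 High (log2 fold change -3.63, adjusted p 1.3e-07). miR-28-3p was at 173, 0 and 0 in tuft, against 1334, 1452, 1381 and 1398 in Sox9 High (-3.53, adjusted p 3.37e-09). miR-140-3p was at 249, 0 and 0 in tuft, against 1477, 1199, 1997 and 1509 in Sox9 High (-3.49, adjusted p 3.88e-07). In each, no tuft library reached a Sox9 High library. miR-532-5p changed by -2.94 in the same way, with 1 tuft library at 233 and the other two at 0. miR-31-5p, an epithelial miRNA of the crypt, was well measured in both sorts, at 6911, 5440 and 7071 in tuft, against 27802, 21626, 42125 and 29330 in Sox9 High, a log2 fold change of -2.19 (adjusted p 6.14e-07).

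The miR-192/194/215 family, abundant in absorptive epithelium, was mixed. Of its 8 tested members, 2 were higher and 1 lower in tuft (median log2 fold change 0.01), against 9.61% and 20.1% over all entries without an offset. Its summed value was 883210 to 972724 in tuft and 473957 to 513175 in Sox9 High. miR-215-5p (chromosome 1, 185313610 to 185313630, +) stood at 337297, 283359 and 250127 in tuft, against 128872, 138981, 121028 and 93710 in Sox9 High. Every tuft library was above every Sox9 High library, a change of 1.27 on the log2 scale (SE 0.34, adjusted p 0.0043). miR-192-5p (chromosome 19, 6264857 to 6264877, +) had the highest mean in both sorts, at 600557, 584457 and 598508 in tuft and 306228, 323250, 330049 and 338958 in Sox9 High. The groups did not overlap, but its log2 fold change (0.87, 95% interval 0.37 to 1.38, adjusted p 0.00554) missed the 2-fold threshold. Summed as the seed family UGACCUA, the pair had a log2 fold change of 0.99 and was likewise not called. With edgeR on recovered reads miR-215-5p, at 0.91, was under 2-fold too.

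The opposite arms of the miR-194 copies moved in opposite directions, while the 5p arm was not called from either copy. The 5p arms have 1 mature sequence, and the table gives the copies different values. miR-194-1-5p stood at 24086, 29169 and 20595 in tuft, against 25884, 20559, 30729 and 20163 in Sox9 High (log2 fold change 0.02, 95% interval -0.64 to 0.69, adjusted p 1). miR-194-2-5p was at 7949, 12491 and 10704 in tuft, against 19880, 14028, 25719 and 17709 in Sox9 High, with no overlap (-0.89, 95% interval -1.53 to -0.24, adjusted p 0.0259). It passed the 2-fold threshold with edgeR (-1.26), without tuft replicate 3 (-1.03) and without Sox9 High replicate 2 (-1.03). miR-194-1-3p (chromosome 1, 185313360 to 185313381, +), from the locus of miR-215, was at 1601, 661 and 1778 in tuft, against 358, 432, 454 and 263 in Sox9 High, and was higher by 1.75 (SE 0.48, adjusted p 0.0044). miR-194-2-3p (chromosome 19, 6264694 to 6264715, +), from the locus of miR-192, was at 341, 406 and 349 in tuft, against 1982, 2390, 3577 and 2060 in Sox9 High, and changed by -2.74 on the log2 scale (SE 0.34, adjusted p 3.02e-07). Neither arm overlapped between the groups. Within tuft cells the chromosome 1 arm exceeded the chromosome 19 arm in each library, and within Sox9 High cells the reverse held in each library. Among all 8 populations, Sox9 High had the lowest mean of miR-194-1-3p and tuft the lowest of miR-194-2-3p. Sox9 Low cells, given for scale, held the 2 arms at 610 ± 277 and 2123 ± 342 (SD, n = 4).

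**Figure D3:**
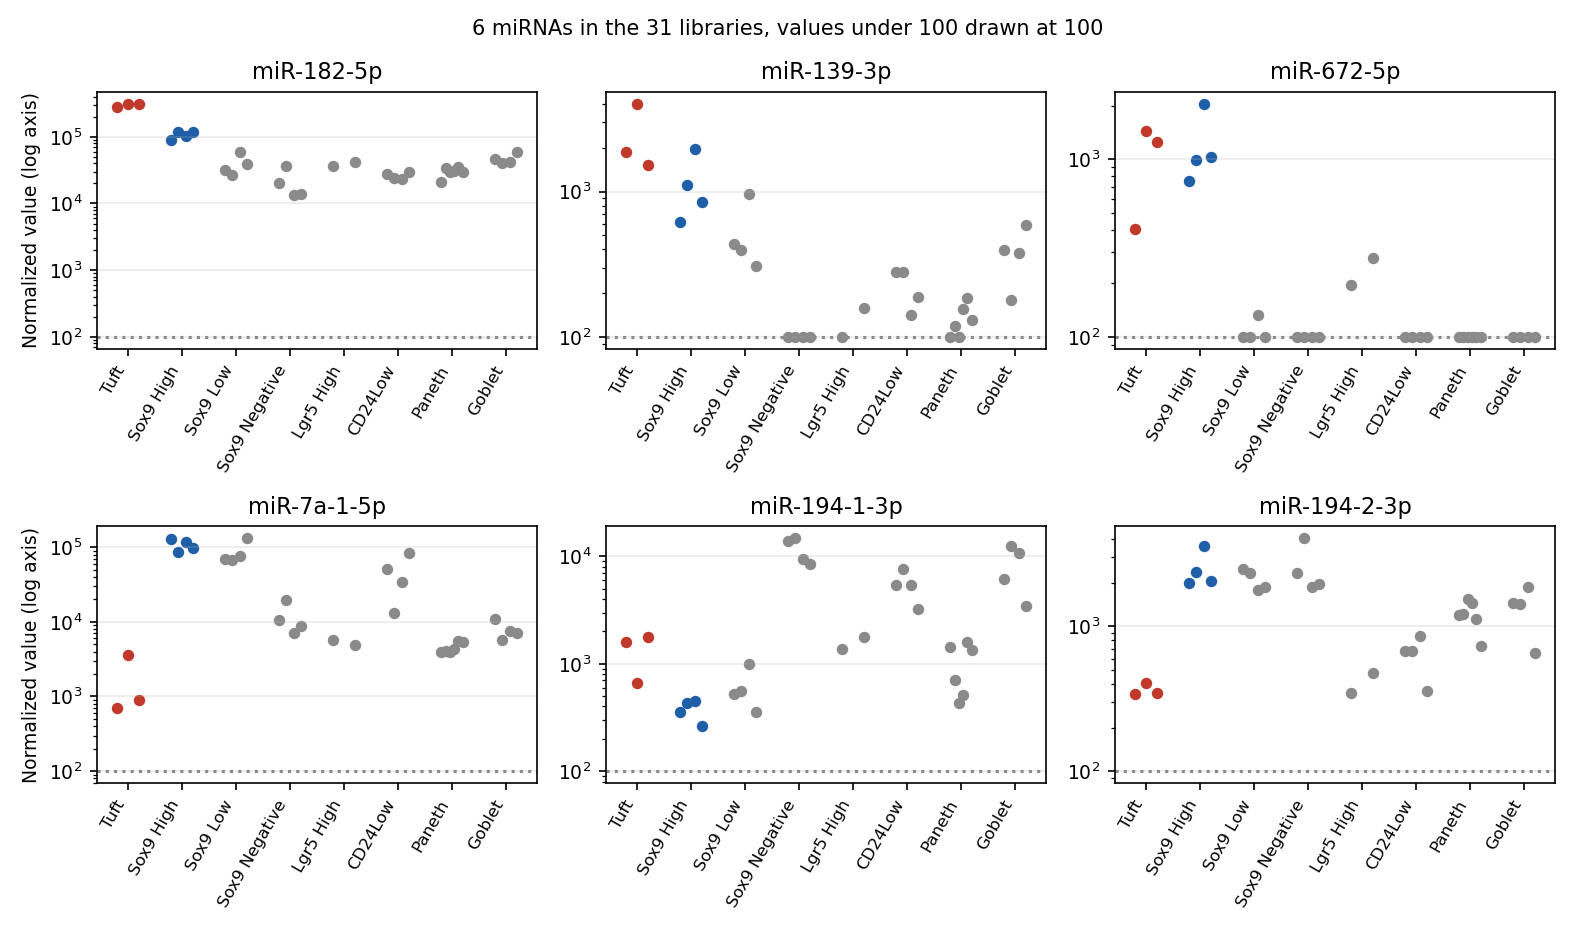
Normalized values of 6 miRNAs in the 31 libraries of 8 populations, 1 point per library, tuft in red, Sox9 High in blue and the rest in grey, on log axes with values under 100 drawn at the dotted line. In the upper row tuft and Sox9 High are the highest populations, in the lower row the 2 sorts lie far apart, with miR-194-1-3p and miR-194-2-3p in opposite order.

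miR-182, of a cluster known from sensory cells, was among the most abundant miRNAs of tuft cells and higher there than in Sox9 High cells. miR-182-5p (chromosome 6, 30165962 to 30165986, -) stood at 275189, 313534 and 305476 in tuft, against 89714, 117287, 104222 and 117399 in Sox9 High. It was 2.79-fold higher in tuft (log2 fold change 1.48, SE 0.27, adjusted p 7.37e-05), and the groups did not overlap. miR-183-5p, its neighbour (chromosome 6, 30169711 to 30169732, -), was at 25027, 29231 and 29002 in tuft, against 13995, 17495, 18374 and 16975 in Sox9 High, and miR-96-5p at 135, 234 and 93.6 in tuft, against 35.8, 38.6, 87.8 and 44.3 in Sox9 High. Their log2 fold changes of 0.74 (95% interval 0.24 to 1.23) and 0.55 (0.28 to 0.83) were under the 2-fold threshold, the second being held down by the floor. Of the 3 tested members, 1 was called higher and none lower (median 0.74), against 9.61% and 20.1% over all entries without an offset.

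Sox9 High was the next highest population for miR-182-5p and miR-183-5p. The lowest Sox9 High library of miR-182-5p, at 89714, was above the highest of the 24 libraries of the other 6 populations, at 60113. For miR-183-5p these values were 13995 and 9359. Taking the mean of each population over the entries without an offset, tuft was among the 2 highest of the 8 populations, with both above the floor, for 42 of the 229 entries. The other was Sox9 High for 17 of those 42, Lgr5 High for 7, goblet and Sox9 Low for 6 each, Paneth for 4 and CD24Low and Sox9 Negative for 1 each. These entries were picked after their values were seen and carry no test, and 4 of the 17 are 2 pairs of near-identical or copied sequences (miR-486-5p with miR-3107-5p and the copies of miR-24-3p). How often each population was the highest after tuft over all 229 entries was not counted. miR-351-5p, miR-541-5p and miR-32-3p entered with tuft means of 280, 231 and 167, and their lowest tuft library was at 0. The ranking used means alone. For miR-429-3p a library of another population, at 18024, exceeded the lowest tuft library, at 13244.

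Besides miR-182-5p and miR-183-5p, these 17 held miR-139, miR-672 and 4 members of the miR-200 family. miR-672-5p (X chromosome, 104116228 to 104116250, -) was at 406, 1432 and 1255 in tuft and 752, 993, 2053 and 1022 in Sox9 High. The groups overlapped (log2 fold change -0.31, 95% interval -0.93 to 0.30, adjusted p 0.494), and the highest library of the other 6 populations held 279. miR-139-3p (chromosome 7, 101475418 to 101475439, +) was at 1860, 4035 and 1536 in tuft, against 620, 1112, 1957 and 852 in Sox9 High, with 968 as the highest elsewhere. Its rise of 1.13 (adjusted p 0.0372) was the 1 rise on the endocrine and neural list, and the call was lost without tuft replicate 3 (0.71), without Sox9 High replicate 1, 2 or 4 (0.88, 1.16 and 1.03) and with the replicate number as a block (1.10, adjusted p 0.0534). The other arm, miR-139-5p, was not called at 0.38 (95% interval -0.13 to 0.90), at 486 ± 69.5 in tuft (SD, n = 3) and 371 ± 33.0 in Sox9 High (n = 4).

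The miR-200 family, which maintains the epithelial state, was abundant in both sorts and had no member called. Of 8 tested members, 0 were higher and 0 lower in limma, against 9.61% and 20.1% over all entries without an offset. Their median log2 fold change was -0.08. miR-200a-3p was at 103401, 167289 and 120490 in tuft, against 84556, 96982, 88247 and 85844 in Sox9 High (0.52, 95% interval 0.01 to 1.04). miR-200b-3p was at 44667 ± 4132 in tuft (n = 3) and 36480 ± 5402 in Sox9 High (n = 4), with an interval of -0.15 to 0.76. The log2 fold change of miR-200c-3p was -0.55 (95% interval -0.96 to -0.14), and that of miR-141-3p was 0.91 (0.24 to 1.58). Leaving out Sox9 High replicate 3 brought miR-141-3p to 1.07 and made it a call. The summed family was 232474 to 318168 in tuft and 204569 to 242079 in Sox9 High, ranges that overlap.

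The let-7 family, whose members share the seed GAGGUAG and restrain growth genes, had calls at about the share of all entries without an offset. let-7b-5p, its most abundant member, was not called, at 277078 ± 5770 in tuft and 223432 ± 81729 in Sox9 High (log2 fold change 0.38, 95% interval -0.14 to 0.90). let-7g-5p was lower, at 9734, 14165 and 11967 in tuft, against 51414, 42023, 52837 and 45933 in Sox9 High (-2.02, adjusted p 1.18e-05). let-7e-5p was at 1071, 599 and 1085 in tuft, against 4520, 3974, 6288 and 4374 in Sox9 High (-2.41, adjusted p 6.31e-06), and miR-98-5p changed by -1.47. In these 3 the groups did not overlap, and how common that was over all entries was not counted. The opposite arm let-7d-3p was the 1 member higher in tuft, at 4202, 3595 and 2408, against 868, 1107, 2436 and 1360 in Sox9 High, with 1 tuft library just under the highest Sox9 High library (1.31, adjusted p 0.00786). In all, 3 of 15 tested members were lower and 1 higher, against 20.1% and 9.61% over all entries without an offset, with a median of -0.67, and the sum over the shared seed, at -0.23, was not called.

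Neighbours of let-7e on chromosome 17 were low in tuft as well. miR-99b-5p was at 0, 179 and 255 in tuft, against 868, 658, 913 and 819 in Sox9 High (log2 fold change -2.28, adjusted p 0.000962). miR-125a-5p was at 227, 0 and 0 in tuft, against 597, 496, 984 and 620 in Sox9 High (-2.31, adjusted p 0.000531). All 3 miRNAs of this cluster had every tuft library under every Sox9 High library, but how common that was over all entries was not counted. Of the 3 tested members of the miR-125, miR-99 and miR-100 list 2 were lower and 0 higher. Over all entries without an offset, 20.1% were lower and 9.61% higher.

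Some miRNAs of the miR-17/92 and related clusters, known for promoting cell division, were lower in tuft. Of 17 tested members, 5 were lower and 0 higher, with a median of 0, against 20.1% lower and 9.61% higher over all entries without an offset. miR-92a-1-3p (chromosome 14, 115044476 to 115044496, +), the most abundant, was at 9820, 7203 and 9547 in tuft, against 36220, 60586, 60450 and 39148 in Sox9 High (log2 fold change -2.44, SE 0.63, adjusted p 0.00281). miR-25-3p, of the same seed AUUGCAC, was at 4104, 5970 and 3514 in tuft, against 15232, 20581, 13000 and 14507 in Sox9 High (-1.82, adjusted p 5.49e-06). The groups were apart in both. miR-106b-3p, miR-17-5p and miR-20a-5p were the other lower members, at -1.52, -1.83 and -1.65. Of these, miR-106b-3p lost its call without tuft replicate 1 (-0.79), miR-17-5p without tuft replicate 1 or 4 (-1.46 and -1.68), and miR-20a-5p at a floor of 200 (-0.96, adjusted p 0.0645). miR-93-5p was not called (-0.45, 95% interval -1.09 to 0.19). The entry with the other copy name, miR-92a-2-3p, has the same seed as miR-92a-1-3p and was not lower. It stood at 1077 ± 659 in tuft (SD, n = 3) and 1060 ± 236 in Sox9 High (n = 4). By their names both entries are copies of miR-92a, so they may not be separate measurements. How reads were divided between them was not tested.

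Of 11 tested miR-30 members, 4 were lower and 0 higher in tuft (median -0.14), against 20.1% lower and 9.61% higher over all entries without an offset. The most abundant, miR-30d-5p, was at 16331, 19749 and 18757 in tuft, against 35856, 39842, 45189 and 37984 in Sox9 High (log2 fold change -1.12, adjusted p 6.37e-05). miR-30a-3p and miR-30e-3p were called at -1.20 and -1.06 and lost their calls without tuft replicate 4 (-0.83) and tuft replicate 1 (-0.91). miR-30c-2-3p, at -1.50, lost its call at a floor of 200 (-0.53, adjusted p 0.0827). miR-103-1-3p and miR-107-3p, which differ by G22C and act in insulin signalling, changed by -1.96 and -2.28. The values of miR-103-1-3p were 1590, 3732 and 1714 in tuft, against 8506, 5918, 11679 and 8501 in Sox9 High, with no overlap.

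**Figure D4:**
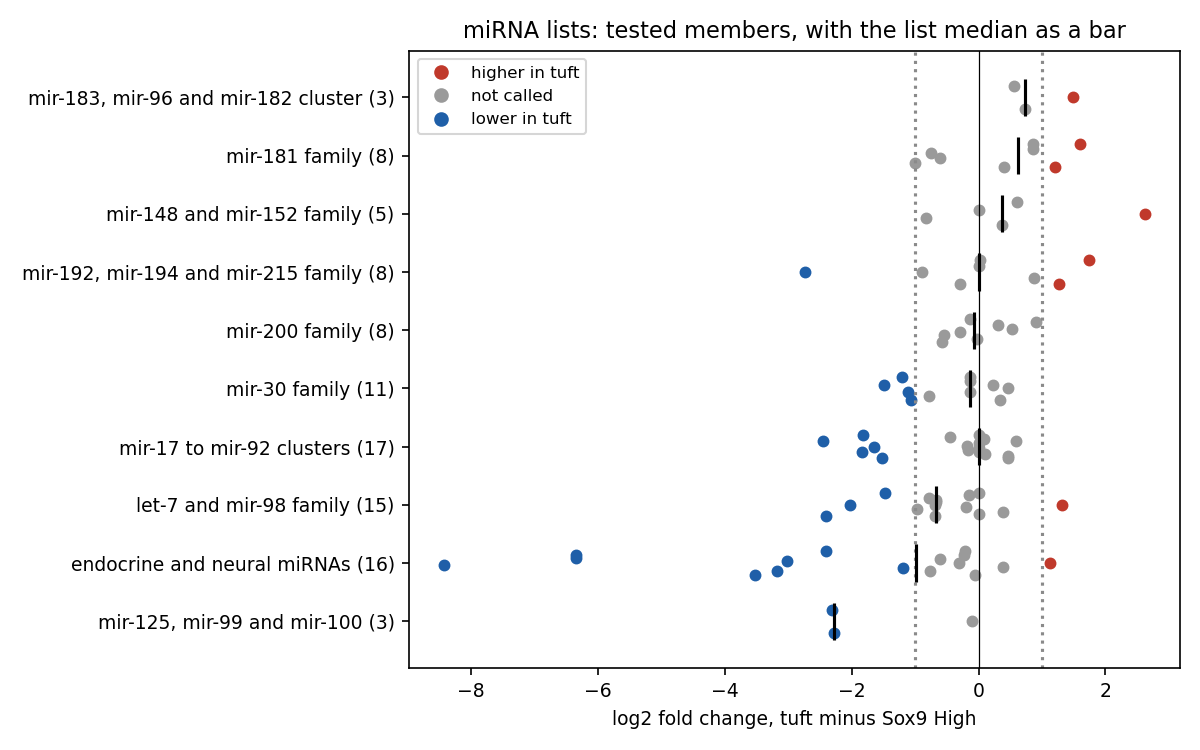
Each point is the log2 fold change, tuft minus Sox9 High, of 1 tested member of a miRNA list, with the number tested in brackets, the list median as a black bar and dotted lines at a 2-fold change. Red points were higher in tuft, blue lower and grey not called, with 8 of 16 endocrine and neural entries lower, 4 of them of miR-7, and 0 of 8 miR-200 members called, against 20.1% lower and 9.61% higher over all entries without an offset.

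The largest rise in tuft cells was in miR-486-5p, a miRNA best known from red blood cells and muscle. It was at 3807, 4992 and 2374 in tuft, against 117, 274, 342 and 88.9 in Sox9 High (log2 fold change 4.29, SE 0.38, adjusted p 4.85e-10). The highest library of the other 6 populations held 356. miR-3107-5p had nearly the same value in each library (4.27), so reads of the pair cannot be told apart and count as 1 finding. The red-cell miRNAs miR-451, miR-144-3p and miR-144-5p, named after the values were seen, were listed at 0 in all 7 libraries.

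miR-27a-3p, miR-23a-3p and miR-152-3p were called higher in tuft. miR-27b-3p and miR-148a-3p, which share the seeds of miR-27a-3p and miR-152-3p, were not. miR-27a-3p (chromosome 8, 84208727 to 84208747, +) was at 1065, 1219 and 566 in tuft, against 96.1, 54.4, 84.4 and 63.1 in Sox9 High, higher by at least 9.02-fold (log2 fold change 3.17, adjusted p 9.31e-11). miR-27b-3p, from another locus, was far more abundant and not called, at 13486 ± 1138 in tuft and 11542 ± 1620 in Sox9 High (log2 fold change 0.23, 95% interval -0.21 to 0.68). They differ by C19U alone, so the split of reads between them is uncertain. miR-23a-3p, of the same chromosome 8 cluster, was at 562, 434 and 51.1 in tuft, against 61.6, 26.5, 39.9 and 47.1 in Sox9 High, at least 2.90-fold higher, and with a floor of 200 its log2 fold change of 0.87 was under 2-fold. miR-24-2-3p of that cluster, whose mature sequence is also made elsewhere, was not called (-0.22).

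miR-152-3p (chromosome 11, 96850439 to 96850459, +) was at 568, 620 and 659 in tuft, against 51.5, 35.4, 0 and 24.0 in Sox9 High, at least 6.15-fold higher (log2 fold change 2.62, adjusted p 9.58e-05). This level was small beside the 15431 ± 5016 (SD, n = 6) of Paneth cells. miR-148a-3p, which shares the seed, was at 17419 ± 2575 in tuft and 13476 ± 1585 in Sox9 High and not called (0.37, 95% interval -0.32 to 1.06). Of the 5 tested members of the miR-148 and miR-152 family 1 was higher and 0 lower (median 0.37). Over all entries without an offset, 9.61% were higher and 20.1% lower.

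Several further miRNAs were higher at sizeable levels. miR-10a-5p was at 4651, 7616 and 10683 in tuft, against 3255, 2527, 1595 and 1264 in Sox9 High (log2 fold change 1.84, adjusted p 0.00733). miR-423-5p was at 13617, 11892 and 7466 in tuft, against 2102, 3692, 5781 and 2485 in Sox9 High (1.71, adjusted p 0.00105). In both, every tuft library lay above every Sox9 High library. miR-744-5p rose by 1.72 (adjusted p 0.00512), with 1 tuft library, at 4390, under the highest Sox9 High library, at 5003, and was not called in a fit of the 7 libraries alone (adjusted p 0.0827). In the miR-181 family, regulators of immune and neural cells, 2 of 8 tested members were higher and 0 lower (median 0.63). Over all entries without an offset, 9.61% were higher and 20.1% lower, and the 2 members are arms of miR-181c. miR-181c-5p was at 6749, 9337 and 7266 in tuft, against 3000, 3142, 3534 and 3750 in Sox9 High (1.21, adjusted p 0.00388), and its opposite arm miR-181c-3p rose by 1.60. Both calls depended on the setting, miR-181c-5p falling short at 0.83 with edgeR, and miR-181c-3p at 0.98 with a floor of 200 and in a fit of the 7 libraries alone (adjusted p 0.056).

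miR-5119 and miR-5105 completed the 12 largest rises, together with many offset entries of like names. miR-5119 (chromosome 11) was at 1601, 2321 and 1064 in tuft and listed at 0 in all 4 Sox9 High libraries, at least 15.8-fold higher (adjusted p 8.65e-15). miR-5105 was at 1422, 978 and 1438 in tuft, against 22.6, 46.1, 210 and 41.2 in Sox9 High (log2 fold change 3.39, adjusted p 8.97e-05). Of the 33 entries with an offset called higher, 27 belonged to the 5 precursors mir-5102, mir-5105, mir-5109, mir-5115 and mir-5119, grouped after their values were seen. Outside these precursors 108 entries were called, 26 higher and 82 lower. Their summed share of the library was 1.99%, 1.87% and 2.36% in tuft and 0.280%, 0.285%, 0.559% and 0.268% in Sox9 High. In the other populations it ran up to 17.7% in goblet cells, whose labels are written like the tuft labels, but it was also 1.18% to 3.84% in Paneth replicates 1 to 4 and 2.74% and 2.30% in Sox9 Negative replicates 3 and 4, whose labels name lanes. The part of this share in the other differences was not tested.

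Marker miRNAs of cells outside the epithelium were low in both sorts. Of the leukocyte miRNAs 6 of 12 in the table were listed in any of the 7 libraries, of the stromal and muscle miRNAs 12 of 21 and of the endothelial 1 of 2. The summed leukocyte miRNAs were 1412 to 2314 in tuft and 2248 to 3459 in Sox9 High. Most of that was miR-146a-5p (means 508 in tuft and 1908 in Sox9 High) and miR-146b-5p (1142 and 929). Both had means above the floor in all 8 populations, so the sum does not measure leukocytes alone. Against 9.61% higher and 20.1% lower over all entries without an offset, 0 of 5 tested members were higher and 1 lower. That member, miR-146a-5p, changed by -2.01 (adjusted p 0.00655) and lost its call without tuft replicate 4 (-1.54). Stromal and muscle miRNAs summed to 792 to 2000 in tuft and 1168 to 2079 in Sox9 High. The largest part was miR-10b-5p (means 940 and 1262), which also had a mean above the floor in all 8 populations. Against the same shares, 1 of 8 tested members was higher and 0 lower. The call, miR-143-3p, rested on 557, 0 and 302 in tuft, against 59.7, 89.8, 83.2 and 41.2 in Sox9 High, and ended without tuft replicate 1 or 4 (0.80 and 1.24). Of the defining markers, miR-150-5p, miR-223-3p and miR-142-3p of leukocytes, miR-145-5p of smooth muscle and miR-126-3p of endothelium were listed at 0 in all 7 libraries. Other markers were listed in single tuft libraries. miR-142-5p was at 216 in tuft replicate 1 and 0 in the other two, against 0 to 13.7 in Sox9 High. miR-155-5p was at 68.1 in tuft replicate 4 alone, against 0 to 12.3 in Sox9 High, and the miR-199a-3p entries at 145 in tuft replicate 3 alone, against 0 to 6.91 in Sox9 High. Endothelial miR-126-5p was at 0 in tuft and 7.91 to 22.8 in Sox9 High. The part of these cells in the differences was not tested.

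By mean distance over all entries tested, Paneth lay nearer to tuft than Sox9 High did and the other 5 populations lay farther. No difference passed the test, which these library numbers left little room to pass. The distance was the root-mean-square difference in log2 floored values between a library and the tuft mean. Sox9 High libraries lay at 1.45 ± 0.05 (SD, n = 4). The tuft libraries themselves lay at 0.766, 0.855 and 0.784 from the mean of the other tuft libraries. Paneth libraries were nearest, at 1.31 ± 0.11 (n = 6), then Sox9 Low at 1.46 ± 0.08, goblet at 1.49 ± 0.15, Lgr5 High at 1.53 ± 0.07 (n = 2), CD24Low at 1.61 ± 0.10 and Sox9 Negative at 1.79 ± 0.07 (n = 4 where not given).

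None of the 6 differences in distance passed a two-sided exact permutation test with Benjamini-Hochberg adjustment over the 6 populations. Sox9 High was nearer to tuft than Sox9 Negative by 0.34 and than CD24Low by 0.16, each with all 4 Sox9 High libraries on one side (adjusted p 0.0857 for both, where the smallest raw p that 4 against 4 allows is 0.0286). A raw p of 0.0286 passes the adjustment only if most of the 6 raw p are about that small, so not passing says little. The test did not use the sample codes that Sox9 High shares with Sox9 Low and Sox9 Negative. Sox9 High was farther from tuft than Paneth by 0.15 (adjusted p 0.0952), and 0.09 with Paneth replicates 5 and 6, whose labels are written like those of tuft, left out. Against Sox9 Low, goblet and Lgr5 High the differences were -0.01, -0.04 and -0.07 (adjusted p 0.857, 0.857 and 0.5, with a smallest raw p of 0.0667 against the 2 Lgr5 High libraries). Over entries without an offset alone, the order changed. Sox9 High was then farther from tuft than goblet by 0.19 and than Lgr5 High by 0.16 (adjusted p 0.1 for both), at nearly the same distance as Paneth (-0.00335), and nearer than Sox9 Low by 0.11 (adjusted p 0.0857). The difference to CD24Low shrank to -0.03 (adjusted p 0.72), and that to Sox9 Negative was -0.41 (adjusted p 0.0857).

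**Figure D5:**
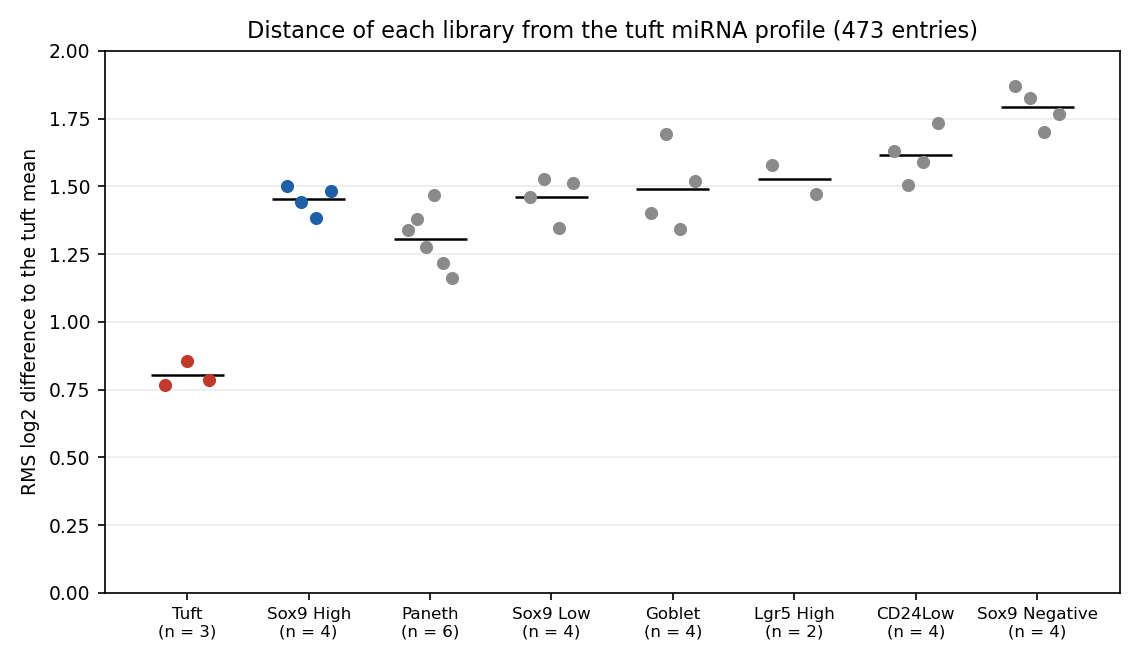
Root-mean-square difference in log2 value between each library and the tuft mean over 473 entries, 1 point per library, with a bar at the mean of each population. Tuft libraries (red) are set against the mean of the other tuft libraries and lie under 0.9, Sox9 High (blue) averages 1.45, Paneth 1.31 and Sox9 Negative 1.79.

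Numbers of called entries are given for each contrast of tuft cells, all of which share the tuft libraries. Tuft cells differed from Paneth in 132 entries (27.9%), from Sox9 High in 137, from goblet and from Sox9 Low in 138 each (29.2%), from Lgr5 High in 158 (33.4%), from CD24Low in 163 (34.5%) and from Sox9 Negative in 178 (37.6%). Between the population means, Sox9 High stood at 0.72 from Sox9 Low and at 1.42 from tuft. CD24Low (1.15), Lgr5 High (1.19) and Paneth (1.28) were also nearer to Sox9 High than tuft was. Sox9 Negative (1.56) and goblet (1.99) were farther. Of the 22 entries higher in tuft than in Sox9 High, the tuft mean exceeded all 6 other populations in 14. Of the 46 lower entries, tuft was under all 6 others in 27, and Sox9 High above all 6 in 11. Both sets were picked by their tuft and Sox9 High values in these libraries, which partly fixes such counts, and they carry no test. For scale, tuft had the highest mean of the 8 populations in 31 of the 229 entries without an offset. How often tuft was lowest or Sox9 High highest over all entries was not counted. Of the 203 entries without an offset above the floor in at least 1 of the 7 libraries, 64 were not called and had a 95% interval wholly between -1 and 1.

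Summed by seed, 166 families were tested, 44 of them with more than 1 entry, and 50 were called (30.1%), 17 higher (10.2%) and 33 lower (19.9%) in tuft. The miR-7 seed GGAAGAC fell most, to 1211, 7471 and 1783 in tuft, against 287582, 191978, 268738 and 221235 in Sox9 High (log2 fold change -6.57, adjusted p 7.1e-12). The seed GCAGCAU of miR-103 and miR-107 changed by -1.96 and AUUGCAC of miR-25 and miR-92 by -2.12. The rises of miR-27a-3p and miR-152-3p left their seed families not called, at 0.32 (seed UCACAGU) and 0.31 (seed CAGUGCA).

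isomiRs, entries whose names carry an offset, were compared as the ratio to the entry without one. The files do not say which end an offset moves. Of 34 ratios over 23 miRNAs with both values at 100 or more in all 7 libraries, 6 were called (17.6%), 5 higher (14.7%) and 1 lower (2.94%) in tuft. All 5 higher ratios were of mir-5109, led by its offset of +5, at 161%, 211% and 439% of the plain entry in tuft, against 37.8%, 43.2%, 24.0% and 32.7% in Sox9 High. The lower ratio was miR-192-5p with an offset of +2, at 0.0549%, 0.153% and 0.0661% of miR-192-5p in tuft, against 0.799%, 0.761%, 0.375% and 0.726% in Sox9 High (log2 difference -2.96, adjusted p 0.0034). The number called grew to 10 without tuft replicate 1 and to 11 without Sox9 High replicate 3. Of the 36 lower entries with an offset, 26 had an offset of +1, out of 82 such entries tested, of which 7 were higher. Over all 244 entries with an offset, 14.8% were lower. The 62 tested entries of the 5 precursors named above held 0 lower calls. These counts do not take out a change of the plain entry. Of the 18 ratios with an offset of +1, 0 were lower and 1 was higher (median log2 difference -0.19).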

How the data were processed

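Small RNA was sequenced from sorted cells. The authors deposited 1 table of normalized values, a signal per miRNA entry and library, whose normalization is not given in the sources used here. Genome build mm9 is named in the submitters' processing notes, and RefSeq positions printed here are GRCm38.p6. The single-cell sets were deposited as UMI count matrices with cell type names, per the file headers, and were summed per cell type. The 3 columns of the miRNA table that match no label were not used. Values under 100 were raised to 100 and log2-transformed, and 473 of 2670 entries above 100 in at least 2 of 31 libraries were fitted with limma 3.58.1 (R 4.3.3, trend, 8 population means, tuft minus Sox9 High, Benjamini-Hochberg adjustment). Calls needed an adjusted p under 0.05 and a log2 fold change of at least 1 in size. isomiR ratios were fitted over the 7 libraries, and seed sums as entries. edgeR 4.0.16 and DESeq2 1.42.0 on recovered reads, other floors, scalings, filters and left-out libraries were alternatives. The scripts were tested on simulated data.

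Named miRNAs are the 12 largest rises and falls, the 5 most abundant of each sort, up to 4 of each list and the largest isomiR ratios, and others were named after their values were seen. The comparison, its members and the lists were chosen with earlier results of these data known. Replicate numbers do not pair tuft with Sox9 High libraries. Sox9 High, Sox9 Low and Sox9 Negative libraries of 1 number share a sample code, which neither the fit nor the distance test used. Read depth is given with the results, and intervals on UMI sums cover counting error only.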

Additional observations from a re-analysis of the deposited data

Results flagged for a closer look

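In 3 of 104 named entries 1 Sox9 High library stood apart from the other 3 by Dixon's criterion, which chance meets in about 1 of 20 groups. miR-5105 was at 210 in Sox9 High replicate 3 and 22.6 to 46.1 in the others. miR-96-5p was at 87.8 in that replicate and 35.8 to 44.3 in the others, all under the floor of 100. miR-200c-3p was at 48917 in Sox9 High replicate 2, close to the tuft libraries, and 71123 to 73177 in the others.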

How the results depend on the processing

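Against 137 calls (55 higher and 82 lower in tuft, 40.1% higher), a pseudocount of 1 without a floor gave 291 (238 lower, 18.2% higher), edgeR 237 (182 lower, 23.2%), edgeR with DESeq2 size factors 230 (167 lower, 27.4%), DESeq2 242 (179 lower, 26%; 3 adjusted p not given) and the entries without an offset alone 68 (22 higher, 46 lower). These settings moved the median log2 fold change of all entries to -2.08, -0.99, -0.75 and -0.72 for the first 4. Seed sums gave 97 calls without a floor and 33 with 7 libraries only, against 50. Leaving out 1 library gave 132 to 145 calls (50 to 68 higher, 77 to 88 lower), 6 to 11 isomiR ratios and 46 to 51 seed sums. With the replicate number as a block, 135 entries were called, all of them among the 137, and miR-139-3p was not (adjusted p 0.0534); same-numbered libraries did not deviate together (r -0.06, -0.07 and -0.15). Without Sox9 High replicate 3, whose label has the other code, 131 of the 137 calls were kept. Without a floor, miR-143-3p, miR-148a-5p and miR-34c-5p reversed (-0.27, -2.78 and -3.51); the cause was not tested. Of the other values of named entries, 2072 kept their side of the threshold, 56 lost a call and 37 gained one. In a fit of 7 libraries only, miR-744-5p, miR-181c-3p, miR-23a-3p, miR-143-3p, miR-139-3p, miR-127-3p, miR-106b-3p, miR-210-3p and let-7d-3p lost theirs. With entries without an offset alone, differences in distance changed sign for goblet (0.19, against -0.04), Lgr5 High (0.16, against -0.07) and Paneth (-0.00335, against 0.15). For CD24Low the difference shrank to -0.03, against -0.16. With so few libraries, no p bears on the stability of these differences. An unfiltered fit was not run. Low depth limits what a listed 0 shows in the tuft libraries.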
